A study of Rattus norvegicus with 12 samples.

Results

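Circular DNA on oncogenes and growth factor receptor genes was examined in rat back skin, over a list of 37 genes that encode receptors, the kinases and RAS proteins below them, cell cycle drivers and transcription factors. A circle was counted for a gene when the deposited annotation placed it in an exon or an intron (a genic circle) and named that gene. By this rule 393 of 83890 listed genic circles lay on the 37 genes, and since a circle listed once can be found in several libraries, these gave 410 of 89560 findings in single libraries. Of the 37 genes, 30 had at least 1 circle and 7 had none, and 367 of the 393 circles lay in introns and 26 in exons. In the 12 libraries these circles were short and lay mostly on receptor genes. In length, recurrence and density over the span of a gene's circles they were close to all genic circles. In exons lay 6.59% of the findings, beside 12.6% over all genic circles. With edgeR, 0 of the 14 genes with at least 10 findings differed between groups after adjustment. Of all 2579 tested genes, 0.00% to 0.969% did, depending on the comparison, so a count of 0 is near the share over all genes.

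Receptor tyrosine kinases sit in the cell membrane, bind a growth factor outside the cell and pass the signal inside through RAS and BRAF and through PI3-kinase and AKT, which feed cyclins, cyclin-dependent kinases and factors such as MYC. In skin, EGFR and its relatives govern keratinocyte growth and renewal, KIT serves melanocytes and mast cells, and the VEGF receptors serve blood vessels. In tumours, very large circles known as ecDNA can carry whole oncogenes and amplify them, whereas most circular DNA of normal tissue is far shorter than a gene and is known as eccDNA.

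The libraries were Circle-seq libraries, in which circles are enriched with a plasmid kit, linear DNA is digested with exonuclease, and what remains is sequenced after a transposase preparation. All 12 came from back skin of wild-type SD rats kept free of specific pathogens. The 4 control libraries were from untreated skin. The group named 5 Gy x2 (4 libraries) received an electron beam dose of 5 Gy once a week, 2 times in all, and the group 5 Gy x4 (4 libraries) received it 4 times. Irradiated skin was taken on day 7 after the last fraction. The labels give neither age, nor the day on which control skin was taken, nor whether each library stands for a rat of its own. The p-values therefore describe variation among these libraries, which may be technical. Since more fractions also meant later sampling, dose and time cannot be told apart. DNA was measured, so no marker gene checks the labelled tissue. Skin holds many cell types, and more cells with a circle cannot be told apart from more circles per cell.

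The libraries differed widely in size. Control libraries listed 1350 to 3788 genic circles, 5 Gy x2 libraries 2355 to 10708 and 5 Gy x4 libraries 7305 to 17285, on 34499 to 397674 supporting reads per library. Supporting reads are the split reads and discordant pairs that mark a circle's junction, total sequencing depth is unknown, and the reads are amplified without molecular identifiers, so the intervals below cover counting error only.

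The genes with most circles were mostly receptors. Alk held 54 findings and Erbb4 51, and these 2 together with Ntrk3, Igf1r, Ntrk2, Gli2 and Cdk6 held 60.5% of the 410. By role, the 4 ERBB receptors held 71, the 16 other growth factor receptors 252, the 8 cytoplasmic kinases and RAS proteins 24, the 4 cell cycle genes 26 and the 5 transcription factors 37. Among all 14890 genes with a circle, 97 had more findings than Alk and 126 more than Erbb4.

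**Figure D1:**
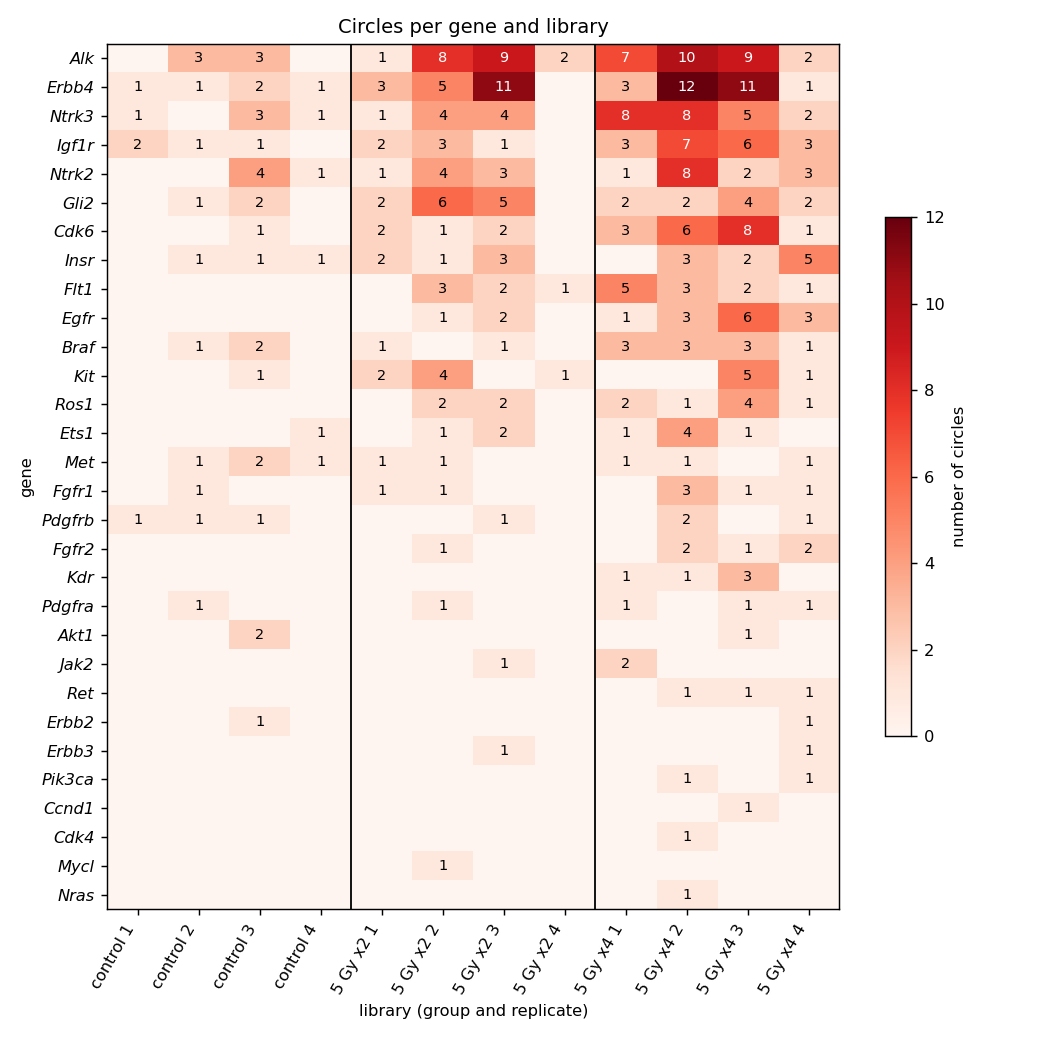
Number of circles per gene (rows) in each of the 12 libraries (columns, by group and replicate) for the 30 genes with a circle; shading and numbers give the same count, and empty cells are 0. Alk and Erbb4 reach 10 and 12 circles in single 5 Gy x4 libraries, while most cells of the lower rows are empty.

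Of the ERBB receptors, Erbb4, a receptor for neuregulins (ENSRNOG00000014248), carried circles over 484 kb of chromosome 9 from 75032143 to 75515886 (build rn6). It had 1, 1, 2 and 1 circles in control replicates 1 to 4, 3, 5, 11 and 0 in 5 Gy x2, and 3, 12, 11 and 1 in 5 Gy x4. The groups overlapped, and replicate 4 of each irradiated group lay no higher than the control libraries. As a share of genic circles pooled over a group, Erbb4 took 0.0478% of control circles (exact 95% interval 0.0155% to 0.112%), 0.0639% of 5 Gy x2 and 0.0547% of 5 Gy x4 circles, which lie within one another's intervals.

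Egfr, the receptor for EGF and the main driver of keratinocyte growth in this family (ENSRNOG00000004332), carried 16 circles on chromosome 14 from 99925980 to 100078358. Control libraries had 0, 0, 0 and 0, 5 Gy x2 libraries 0, 1, 2 and 0, and 5 Gy x4 libraries 1, 3, 6 and 3. Every 5 Gy x4 library lay above every control library, but the control libraries were also the smaller ones. Egfr was 0.0263% of the genic circles of 5 Gy x4 (13 of 49366), while 0 of 10463 in control allows a share of up to 0.0287% (3 counts), so a difference in share was not detectable at this depth. Egfr was also the 1 gene of the 14 with an unadjusted p under 0.05 in 5 Gy x4 against control, where 297 of all 2579 tested genes had one. With edgeR's quasi-likelihood test its adjusted p was 0.412, at a log2 fold change of 4.06 (SE 1.94, n = 4) that depends on the prior count because all controls were at 0. Erbb2, the partner of the other ERBB receptors, had 1 circle in control replicate 3 and 1 in 5 Gy x4 replicate 4. Erbb3, a neuregulin receptor with a weak kinase of its own, had 1 in 5 Gy x2 replicate 3 and 1 in 5 Gy x4 replicate 4.

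Among the other receptors, Alk, known as a fusion oncogene in lymphoma and lung cancer (ENSRNOG00000008683), carried circles over 493 kb of chromosome 6 from 22702904 to 23196215. It had 0, 3, 3 and 0 circles in control, 1, 8, 9 and 2 in 5 Gy x2, and 7, 10, 9 and 2 in 5 Gy x4. The irradiated groups reached higher numbers and overlapped with control, and Alk's pooled share of 0.0573% in control compares with 0.0673% at 5 Gy x2 and 0.0567% at 5 Gy x4.

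The neurotrophin receptors came next. Ntrk3, the receptor for neurotrophin-3 (ENSRNOG00000018674, chromosome 1, circles from 139922105 to 140208312), had 1, 0, 3 and 1 circles in control, 1, 4, 4 and 0 in 5 Gy x2, and 8, 8, 5 and 2 in 5 Gy x4. The first 3 of these 5 Gy x4 libraries lay above every control library and replicate 4 did not, while its pooled share was 0.0478% of control and 0.0466% of 5 Gy x4 circles. Ntrk2, the receptor for BDNF (ENSRNOG00000018839, chromosome 17, circles from 5948066 to 6239998), had 0, 0, 4 and 1 in control, 1, 4, 3 and 0 in 5 Gy x2, and 1, 8, 2 and 3 in 5 Gy x4. Control replicate 3 was within the range of both irradiated groups.

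The insulin receptor family followed. Igf1r, the receptor for insulin-like growth factors (ENSRNOG00000014187, chromosome 1, circles from 128924804 to 129180354), had 2, 1, 1 and 0 circles in control, 2, 3, 1 and 0 in 5 Gy x2, and 3, 7, 6 and 3 in 5 Gy x4. In number, every 5 Gy x4 library lay above every control library and at or above every 5 Gy x2 library. Pooled, it took 0.0382% of control circles (exact 95% interval 0.0104% to 0.0979%), 0.0202% of 5 Gy x2 and 0.0385% of 5 Gy x4 circles. Insr, the insulin receptor (ENSRNOG00000029986, chromosome 12, circles from 1686388 to 1812777), had 0, 1, 1 and 1 in control, 2, 1, 3 and 0 in 5 Gy x2, and 0, 3, 2 and 5 in 5 Gy x4. All 3 groups overlapped for Insr.

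Kit, the receptor for stem cell factor (ENSRNOG00000002227, chromosome 14, circles from 35076337 to 35147170), had 0, 0, 1 and 0 circles in control, 2, 4, 0 and 1 in 5 Gy x2, and 0, 0, 5 and 1 in 5 Gy x4. Its circles in 5 Gy x4 came mostly from replicate 3. Flt1, a VEGF receptor (ENSRNOG00000000940, chromosome 12, circles from 9061631 to 9204446), had none in the 4 control libraries, 0, 3, 2 and 1 in 5 Gy x2, and 5, 3, 2 and 1 in 5 Gy x4. As for Egfr, its pooled share in 5 Gy x4 (0.0223%) was below the 0.0287% that a count of 0 allows in control. Ros1, a receptor known from fusions in lung cancer, also had none in control and 1 to 4 in each 5 Gy x4 library, with a share of 0.0162% that the control count of 0 allows as well.

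The remaining receptors had few circles. Met, the receptor for hepatocyte growth factor, had 8 entries and was found in 3 control, 2 5 Gy x2 and 3 5 Gy x4 libraries, never more than 2 in a library. Pooled, it took 0.0382% of control, 0.00673% of 5 Gy x2 and 0.00608% of 5 Gy x4 circles, and with 9 findings it missed the minimum of 10 for testing. With no minimum, edgeR over all 14890 genes gave Met a log2 fold change of -2.36 in 5 Gy x4 against control (SE 1.08, n = 4, unadjusted p = 0.0288, adjusted p = 0.741). In that fit Met and Egfr had an unadjusted p under 0.05 in this comparison, as had 487 of all genes. It was Akt1 alone in 5 Gy x2 against control (410 of all) and Kdr alone between the doses (383 of all). With both irradiated groups against control it was Met, Akt1 and Pdgfrb (557 of all). The PDGF receptors Pdgfra and Pdgfrb, which serve fibroblasts and pericytes, had 5 entries each. Fgfr1 had 8 entries and Fgfr2, whose IIIb form receives FGF7 and FGF10 in keratinocytes, had 6. Kdr, the main VEGF receptor of endothelium, had 5, all in 5 Gy x4, and Ret, the receptor for GDNF-family ligands, had 3, all in 5 Gy x4. Fgfr3 had no circle in any library.

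Of the cytoplasmic signalling genes, Braf, the kinase that links RAS to the MAPK cascade (ENSRNOG00000010957, chromosome 4, circles from 67410588 to 67500598), alone reached the minimum for testing. It had 0, 1, 2 and 0 circles in control, 1, 0, 1 and 0 in 5 Gy x2, and 3, 3, 3 and 1 in 5 Gy x4. Control replicate 3 and 5 Gy x4 replicate 4 overlapped, and Braf took 0.0287% of control, 0.00673% of 5 Gy x2 and 0.0203% of 5 Gy x4 circles. Akt1 had 3 entries (2 of them in control replicate 3), Jak2, which signals below cytokine receptors, had 3, Pik3ca, the catalytic subunit of PI3-kinase, had 2, and Nras had 1. Hras, Abl1 and Src had none.

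Of the cell cycle genes, Cdk6, which drives G1 with D-type cyclins (ENSRNOG00000009258, chromosome 4, circles from 27798144 to 27963737), had 0, 0, 1 and 0 circles in control, 2, 1, 2 and 0 in 5 Gy x2, and 3, 6, 8 and 1 in 5 Gy x4. The lowest 5 Gy x4 library equalled the highest control library. With edgeR its log2 fold change in 5 Gy x4 against control was 1.76 (SE 1.17, n = 4, adjusted p = 0.452), and without control replicate 3, which held the 1 control circle, it was 4.57. Its close relative Cdk4 and the cyclin gene Ccnd1 had 1 circle each, both exonic and both in 5 Gy x4, and Ccnd2 had none.

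Of the transcription factors, Gli2, an activator at the end of the Hedgehog pathway that hair follicles need (ENSRNOG00000007261, chromosome 13, circles from 34842047 to 35042468), had 0, 1, 2 and 0 circles in control, 2, 6, 5 and 0 in 5 Gy x2, and 2, 2, 4 and 2 in 5 Gy x4. It was among the 4 genes of the 14 with a lower pooled share in 5 Gy x4 than in 5 Gy x2, with a fitted log2 difference of -1.05 (SE 0.61, n = 4, edgeR adjusted p = 0.958). Ets1 had 9 entries, found in all 3 groups, and Mycl had 1, in 5 Gy x2 replicate 2. Myc and Mycn, the family members best known for amplification on ecDNA in tumours, had no circle in an exon or intron.

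The share of genic circles on the 37 genes together overlapped between all 3 groups. The share was 0.276%, 0.342%, 0.686% and 0.444% in control replicates 1 to 4, 0.287%, 0.448%, 0.498% and 0.170% in 5 Gy x2, and 0.533%, 0.502%, 0.445% and 0.493% in 5 Gy x4. The 5 Gy x4 libraries lay close together and inside the control range, and the highest value of all was control replicate 3. The means were 0.437% ± 0.180 (SD, n = 4), 0.351% ± 0.150 and 0.493% ± 0.0364. The difference of 5 Gy x4 from control was 0.0564 percentage points, below the control SD. Without control replicate 3 it was 0.140, with the lowest 5 Gy x4 library (0.445%) beside the highest remaining control (0.444%). The direction also turned with the circles counted, to -0.0235 with at least 5 supporting reads and -0.0220 for circles of 330 to under 420 bp. The mean of 5 Gy x4 lay 0.143 percentage points above that of 5 Gy x2 (SD between libraries 0.109). That difference stayed positive in every setting, though libraries of the 2 doses overlapped. No p is given for the share of the 37 genes, since the genes were chosen together.

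**Figure D2:**
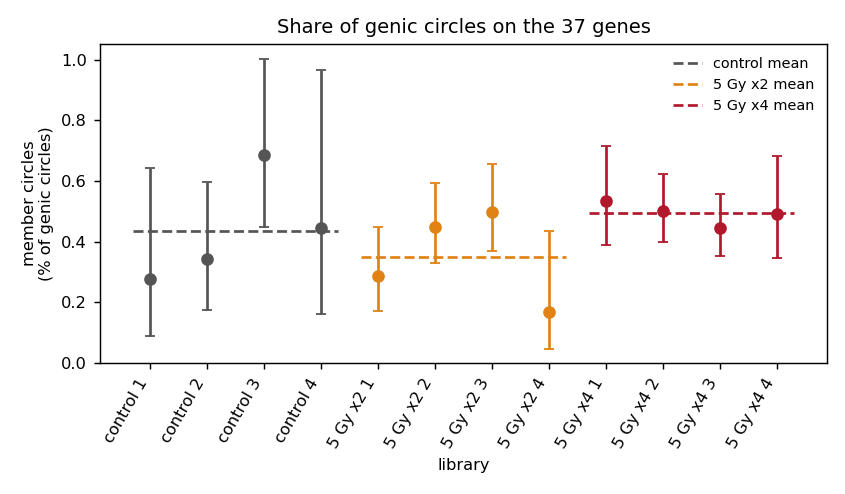
Share of each library's genic circles that lay on the 37 genes (y axis, percent; 12 libraries on the x axis), with exact 95% binomial intervals as bars and group means as dashed lines. The 5 Gy x4 libraries sit between 0.445% and 0.533%, within the control range of 0.276% to 0.686%.

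Larger libraries mostly had a circle on more of the 37 genes. The number of these genes with a circle was higher in 5 Gy x4 than in control libraries, while 5 Gy x2 overlapped control. It was 4, 10, 14 and 6 in control, 12, 18, 16 and 3 in 5 Gy x2, and 16, 22, 21 and 22 in 5 Gy x4, with means of 8.5 ± 4.43, 12.3 ± 6.65 and 20.3 ± 2.87 (SD, n = 4). Every 5 Gy x4 library lay above every control library. Drawn down to 1350 genic circles, the size of the smallest library, libraries would hold 5.19 ± 1.86 (control), 3.90 ± 1.47 (5 Gy x2) and 5.52 ± 0.384 (5 Gy x4) of the genes. At equal size the 5 Gy x4 mean was 0.330 genes above control and the groups overlapped, and 5 Gy x2 minus control was -1.29 genes.

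**Figure D3:**
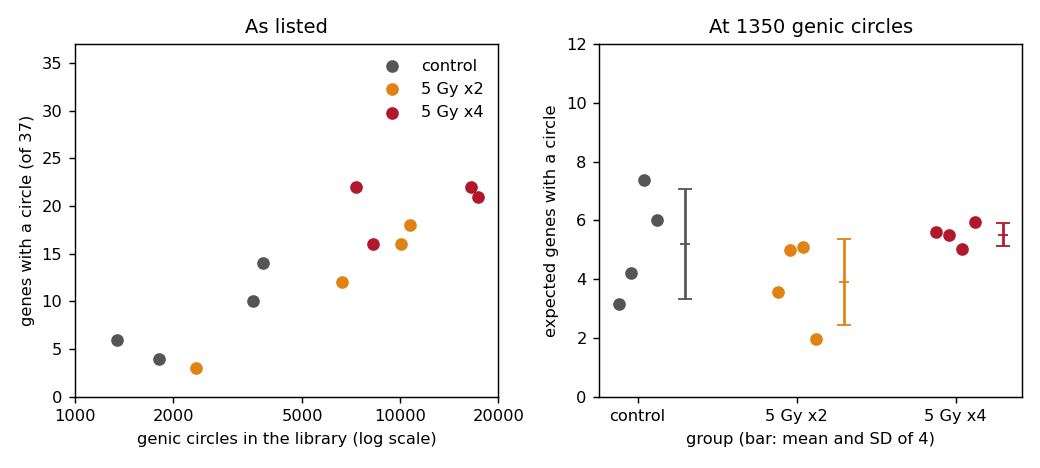
Left, the number of the 37 genes with a circle (y axis) against genic circles in the library (x axis, log scale). Right, the number expected at 1350 genic circles, by group, with the mean and SD of 4 libraries beside the points. On the left, 5 Gy x4 libraries reach 16 to 22 genes, and on the right the group means are 5.19, 3.90 and 5.52.

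Single genes were compared with edgeR on the number of circles per gene, over the 2579 genes with at least 10 circles in all, scaled to genic circles. In 5 Gy x2 against control, 0 of the 14 listed genes tested passed an adjusted p of 0.05, where 0.310% of all tested genes did (8 genes, all lower). In 5 Gy x4 against control, 0 of 14 passed, where 0.969% of all did, 1 gene higher (0.0388%) and 24 lower. Between the doses 0 of 14 passed, where 0.00% of all did, with 105 genes but none of the 14 at an unadjusted p under 0.05. With both irradiated groups against control, 0 of 14 passed, where 0.931% of all did (24, all lower). The lowest adjusted p among the 14 was 0.518, 0.412, 0.958 and 0.457 in these 4 comparisons. Precision was low. Approximate standard errors of the 14 log2 fold changes, worked back from the F statistics, ran from 0.67 to 2.08 in 5 Gy x4 against control. With TMM factors, which raised the median log2 fold change of all tested genes from 0.07 to 0.90 in 5 Gy x2 and from 0.21 to 1.27 in 5 Gy x4 against control, still 0 of 14 passed. The calls over all genes then went the other way, with 8 higher and 1 lower in 5 Gy x4, 5 higher and 2 lower with both irradiated groups, and 0 in 5 Gy x2 (436 at an unadjusted p under 0.05). DESeq2 called 0 of the 14 in any comparison, where of all 2579 genes it called 1 in 5 Gy x4 against control and 0 in the other comparisons.

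The direction of the 14 was mixed. Pooled shares in 5 Gy x2 were higher than in control for 6, lower for 5, and 3 (Ros1, Flt1 and Egfr) had no control circle, where all 2579 genes divided into 954, 1157 and 468. In 5 Gy x4 they were higher for 5 and lower for 6, with the same 3 at 0 in control, against 1000, 1111 and 468 of all genes. The median log2 ratio, with control counts of 0 set to 3 circles over the group, was -0.51 for the 14 and for all genes in 5 Gy x2. Pooled counts are small whole numbers, so these ratios take few values and the shared -0.51 is no measure of likeness. In 5 Gy x4 it was -0.08 for the 14 and -0.24 for all genes. The medians of the fitted log2 fold changes, which treat the counts of 0 otherwise, had the opposite sign, 0.32 for the 14 and 0.07 for all genes in 5 Gy x2 and 0.10 and 0.21 in 5 Gy x4, so neither sign nor order held across both ways of treating zeros. Both comparisons share the control libraries. Between the doses the pooled share was higher in 5 Gy x4 for 10 of the 14 and lower for 4, where of all genes 1309 were higher and 1262 lower.

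Complete separation of the groups' libraries was seen for a few genes and depended on the scale. In number of circles, all 4 libraries of 5 Gy x4 lay above all 4 controls for 4 of the 14 genes (Ros1, Flt1, Egfr and Igf1r), where this held for 20.0% of all tested genes. By share of genic circles it held for 3 of 14 (Ros1, Flt1 and Egfr), where it held for 9.89% of all. The control libraries held no circle on any of these 3, so each reached the minimum of 10 circles through irradiated libraries alone. With control at 0, a circle in each 5 Gy x4 library was enough for separation, so this is no support for a difference. In 5 Gy x2 against control it held for 0 of 14 on either scale, where it held for 3.30% of all on each. Between the doses, all 5 Gy x4 libraries lay above all 5 Gy x2 libraries by share for 1 gene, Igf1r, where this held for 1.63% of all, and by number for 0 of 14, where it held for 1.90% of all. The reverse, all libraries of the more irradiated group below the others, held for 0 of 14 in each comparison. By share this held for 2.13% (5 Gy x2) and 4.15% (5 Gy x4) of all tested genes against control and 1.16% between the doses, and by number for 0.0775% in 5 Gy x4 against control.

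The circles were short. Of the 410 findings, 66.1% measured 330 to under 420 bp, about the DNA of a pair of nucleosomes, where all genic circles gave 64.0%. In control this class was 40.8% of 49 findings (exact 95% interval 27.0% to 55.8%), in 5 Gy x2 66.9% of 121 (57.8% to 75.2%) and in 5 Gy x4 70.8% of 240 (64.6% to 76.5%). Single libraries varied more than these intervals in control, with 80.0% (of only 5 circles), 33.3%, 42.3% and 16.7% in replicates 1 to 4, so that replicate 1 lay above every irradiated library. The 5 Gy x2 libraries ran from 64.0% to 75% and the 5 Gy x4 libraries from 63.9% to 75%. Pooled over all genic circles the groups gave 34.9%, 67.5% and 68.1%. Median lengths on the listed genes were 340, 357 and 361 bp in the same order of groups, beside 343, 362 and 360 bp for all genic circles. Circles under 150 bp were 12.2%, 1.65% and 0.833% of findings, beside 9.01%, 2.03% and 1.35% over all genic circles.

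**Figure D4:**
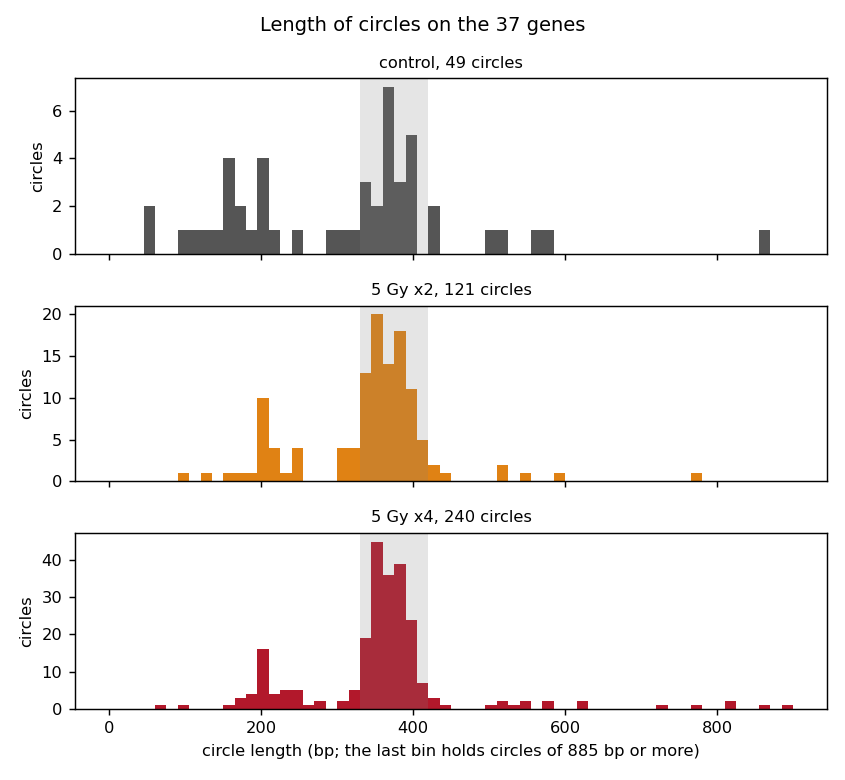
Lengths of the circles on the listed genes (x axis, bp, in bins of 15 bp; y axis, number of circles) in control, 5 Gy x2 and 5 Gy x4, with the range of 330 to under 420 bp shaded and each panel on its own y scale. That range holds 40.8% of the 49 control circles, 66.9% of 121 and 70.8% of 240.

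The longest circle lay in an intron of Egfr, on chromosome 14 from 99925980 to 99938886, and measured 12907 bp. It was found in 5 Gy x4 replicate 4 alone, on 2 supporting reads, with the label lconf, whose meaning the tables do not give. The next longest was an intronic Pdgfrb circle of 856 bp, so 1 of the 393 reached 1000 bp, beside 926 of all 83890 genic circles.

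Exonic circles were a smaller part on these genes than over all genic circles. They were 27 of the 410 findings (6.59%, exact 95% interval 4.38% to 9.44%), where all genic circles gave 12.6%, and the share was below that of all genic circles in 10 of 12 libraries, 4 of which had no exonic circle on the listed genes. By group they were 2.04% of control (1 of 49), 6.61% of 5 Gy x2 and 7.50% of 5 Gy x4 findings, beside 9.68%, 12.5% and 13.2% over all genic circles. Exon and intron lengths of these genes were not used here, so their part in the difference was not tested. The 1 exonic control circle was on Erbb4, chromosome 9 from 75298941 to 75299373, in replicate 1.

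The exonic circles were spread over 19 genes, with at most 2 each. Erbb4, Insr, Flt1, Kit, Pdgfra, Ntrk2 and Alk had 2. Igf1r, Ntrk3, Fgfr1, Fgfr2, Kdr, Pdgfrb, Ros1, Pik3ca, Braf, Cdk4, Ccnd1 and Ets1 had 1. Their lengths ran from 160 bp on Ccnd1 (chromosome 1 from 218091399 to 218091558) to 433 bp on Erbb4. The Cdk4 circle (chromosome 7 from 70351808 to 70352142, in 5 Gy x4 replicate 2) was annotated to the neighbouring gene Tspan31 as well, and was alone among the 393 circles in naming another gene. The exonic circle with most supporting reads, 24, lay on Ntrk2 (chromosome 17 from 6118799 to 6119203, in 5 Gy x2 replicate 2).

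On the genes with most circles, circles lay at many places between the first and the last circle. How far they covered the genes themselves was not tested, since the span is set by the circles and gene lengths were not available. For the 13 listed genes with at least 10 listed circles, density over the span from the first to the last circle had a median of 120 circles per Mb, from 89.1 on Ntrk2 to 169 on Kit, where all 2354 such genes gave a median of 127 (quartiles 104 and 161). The fewest per Mb after Ntrk2 were on Erbb4 (97.2), Egfr (105), Alk (109) and Igf1r (113), and the most after Kit on Braf (167), Cdk6 (145), Insr (135) and Ros1 (131). The listed genes with a circle had a median of 8 circles each, where all 14890 genes had 3. This number is not scaled to gene length, whose part in the difference was not tested. Among genes with at least 10 circles the median span was 166 kb for the listed genes and 127 kb for all.

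**Figure D5:**
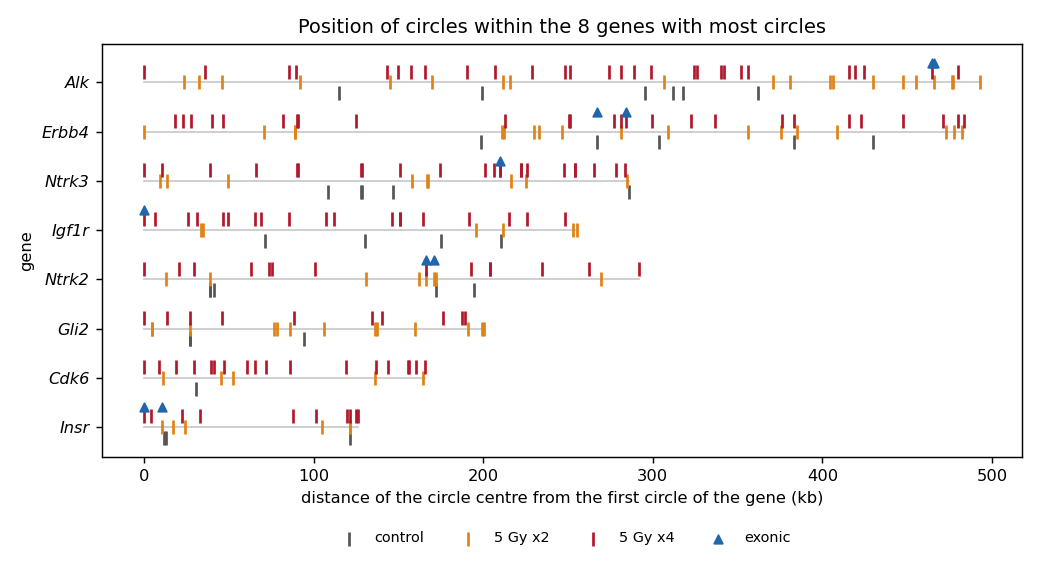
Position of each circle on the 8 genes with most circles, as distance of the circle's centre from the first circle of the gene (x axis, kb), with control, 5 Gy x2 and 5 Gy x4 circles in separate rows of ticks and exonic circles as triangles. Circles lie all along the span from first to last circle on Alk (493 kb) and Erbb4 (484 kb), those of control within the inner part of both spans.

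Few circles recurred. Of the 393 circles, 15 (3.82%) were listed in 2 or more libraries, where 4.15% of all genic circles were, and the most libraries for 1 circle was 3, beside 12 over all genic circles. Of the 15, 9 included a control library and 6 were found in irradiated libraries only. The library calls of a recurrent circle had the same start and end in all its libraries for 1 of the 15, an intronic Kit circle of 177 bp on chromosome 14 from 35083817 to 35083993, found in control replicate 3 and 5 Gy x4 replicate 4. For the others the starts spread over up to 216 bp and the ends over up to 187 bp.

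The circles found in 3 libraries lay in introns of Insr and Gli2. That on Insr, chromosome 12 from 1807921 to 1808017, measured 97 bp and had the most supporting reads of the 393, 74, in control replicate 4, 5 Gy x2 replicate 1 and 5 Gy x4 replicate 4. That on Gli2, chromosome 13 from 34869047 to 34869563, was in replicate 3 of control, replicate 2 of 5 Gy x2 and replicate 3 of 5 Gy x4, on 20 reads.

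The recurrent circles that included a control library were, besides these and the Kit circle, on Met, Pdgfrb, Ntrk3 and Erbb4. The Met circle (chromosome 4 from 44813099 to 44813492) had 65 reads in control replicate 4 and 5 Gy x2 replicate 1. A pair of Pdgfrb circles that overlap each other (chromosome 18 from 56382308 to 56382811, and from 56382309 to 56383164) had 52 and 24 reads, each in 1 control and 1 5 Gy x4 library. With another overlapping circle, this stretch of Pdgfrb was found in 5 libraries, 3 of them control. A pair of overlapping Ntrk3 circles (chromosome 1 from 140049943 to 140050515, and from 140050253 to 140050556) had 5 and 25 reads, each in 1 control and 1 5 Gy x4 library. The Erbb4 circle from 75415434 to 75415795 of chromosome 9 had 9 reads in control replicate 3 and 5 Gy x4 replicate 1.

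The 6 recurrent circles of irradiated libraries alone were on Erbb4, Kit, Ntrk2 and Ets1. Of 3 on Erbb4, that from 75313019 to 75313398 was in replicate 3 of both irradiated groups (13 reads), that from 75447708 to 75448077 in 5 Gy x4 replicates 1 and 2 (15 reads), and that from 75504658 to 75504907 in 5 Gy x2 replicates 1 and 3 (23 reads). The Kit circle from 35129177 to 35129566 of chromosome 14 had 5 reads, the Ets1 circle from 33862608 to 33862931 of chromosome 8 had 43, and the exonic Ntrk2 circle from 6114241 to 6114604 of chromosome 17 had 11, each in 1 library of each dose. Over all libraries, 12.2% of the circles on the listed genes overlapped another listed circle, beside 9.47% of all genic circles. Besides the Insr circle, those with most reads were on Pdgfra (72, chromosome 14 from 35538363 to 35538739, 5 Gy x4 replicate 4), Ros1 (66, chromosome 20 from 33155756 to 33156160, in the same library), Met (65) and Igf1r (57, chromosome 1 from 129120781 to 129120972, 5 Gy x2 replicate 1).

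Other genes of the same pathways gave no calls either, and nearly no gene of the whole table did. Of all 2579 tested genes, 0.310% passed in 5 Gy x2 and 0.969% in 5 Gy x4 against control. Between the doses 0.00% passed, and 0.931% with both irradiated groups against control. With 8 to 11 tested genes per list, a count of 0 cannot be told from these shares. Of 33 other receptor tyrosine kinases, 30 had a circle, led by the ephrin receptors Ephb1 (53 findings) and Epha5 (35), and 0 of the 11 tested passed in any comparison. They took 0.440% ± 0.119 of control, 0.404% ± 0.0932 of 5 Gy x2 and 0.309% ± 0.0180 of 5 Gy x4 genic circles (SD, n = 4). Of 38 receptor ligands, 35 had a circle, most on the PDGF genes Pdgfd (26) and Pdgfc (23), and 0 of 9 tested passed. Their shares, in the same order of groups, were 0.277% ± 0.0894, 0.262% ± 0.0639 and 0.317% ± 0.0403. Of 33 other genes of RAS, MAPK and PI3-kinase signalling, 29 had a circle, most of all on Rptor, a subunit of mTOR complex 1 (37), and 0 of 8 passed, with shares of 0.190% ± 0.0791, 0.251% ± 0.0658 and 0.260% ± 0.0671. Of 31 negative regulators and tumour suppressors, 26 had a circle, led by Nf1, which turns RAS off (25), and Rb1, which holds back the cell cycle (19), and 0 of 9 passed, with shares of 0.159% ± 0.118, 0.259% ± 0.0204 and 0.183% ± 0.0297. In 5 Gy x4 against control the pooled share was higher for 3 and lower for 7 of the other receptors, higher for 3 and lower for 5 of the ligands, higher for 6 and lower for 1 of the signalling genes, and higher for 3 and lower for 5 of the negative regulators. Each list also held 1 gene at 0 in control, and over all 2579 genes 1000 were higher and 1111 lower. In 5 Gy x2 against control the signalling genes divided into 3 higher and 4 lower, and the negative regulators into 6 higher and 2 lower.

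The list of larger circles, deposited apart as ecDNA, held 157 entries, of which 1 included a listed gene. This was Igf1r, in an entry of 1988207 bp on chromosome 1 from 127652225 to 129640431 that named 14 genes. It was found in control replicate 1 on 1 supporting read.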

How the data were processed

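Circle-seq tables of 12 rat skin libraries were used as deposited. The deposited values are counts per the file headers, namely whole-number supporting reads per circle and library, not normalized by the authors. The position of each call in single libraries was taken from the deposited annotation table of the series, whose coordinates have no other unit than bases. BWA, Picard, bedtools and the build rn6 are named in the submitters' processing notes. Which program called the circles, and how circles of different libraries were merged, is not given in the sources used here. Coordinates are given here with the first base numbered 1, where the tables number it 0. In 203 of 228510 entries the library counts differed from the table's total. Of the columns with values per library, 17 were not used.

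A circle was present in a library at 1 or more supporting reads, and its genes were those of its exon or intron annotation. Circles per gene were tested in R 4.3.3 with edgeR 4.0.16 (quasi-likelihood F test, 1 fit of all 12 libraries, group as the only term, library size the number of genic circles, genes with at least 10 circles in all, Benjamini-Hochberg over 2579 genes, threshold 0.05) and alternatively with DESeq2 1.42.0. Everything else used Python 3.11.15 with scipy 1.17.1, pandas 2.3.3 and numpy 2.4.6. The test was tried on simulated data. Intervals are exact (Clopper-Pearson) at 95%, and the limit for a count of 0 is 3 counts. Each SE given with edgeR is the size of the log2 fold change divided by the square root of its F statistic. It restates the test and is not a separate estimate of spread.

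Replicate numbers appear in the labels without saying what they mark. The 37 genes, their roles and the pathway lists were chosen with earlier results of these data known. Values by library are given for genes with circles in at least 6 libraries, at most 12 of them by number of findings. Group values or counts are given for the others, and every circle in 2 or more libraries is named, with the longest and the best supported. Ros1 is outside the first rule, and its values are given because it was at 0 in control. Circles per Mb of gene length could not be had without a length in build rn6, so the span of the circles was used. No p is given for sums over the list. Alternatives were TMM factors, DESeq2, other filters on genes and circles, a replicate block and leaving out each library.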

Additional observations from a re-analysis of the deposited data

Results flagged for a closer look

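In 54 groups of 4 libraries checked, a highest or lowest library stood apart from the other 3 in 7, where chance gives about 1 in 20 for continuous values. That rate does not hold for counts of 0 to 4 with ties, which make up 6 of the 7, so the number cannot be read as an excess. The number of listed genes with a circle was 16 in 5 Gy x4 replicate 1, and 21 to 22 in the other 3 libraries. Control replicate 3, the largest control library, had 2 circles on Erbb4 where the other controls had 1, 1 on Cdk6 where the others had 0, and 1 on Kit where the others had 0. Control replicate 1 had 0 on Insr where the others had 1. In 5 Gy x4, replicate 3 had 4 circles on Gli2 where the others had 2, and replicate 4 had 1 on Braf where the others had 3. Apart from the number of genes with a circle, each of these rests on a difference of 1 or 2 circles.

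Circles in the 2 kb next to the listed genes, which the comparisons above do not use, averaged 2.25 per library in 5 Gy x2 and 2.25 in 5 Gy x4, above 0.75 in control. As a share of all circles in such flanks the means were 0.370% ± 0.0866, 0.254% ± 0.158 and 0.351% ± 0.322 (SD, n = 4), so the order of the groups was not that of the numbers. The averages rest in large part on 1 circle downstream of Kdr, found in 2 control, 4 5 Gy x2 and 2 5 Gy x4 libraries.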

How the results depend on the processing

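No alternative put a listed gene past the threshold, and with filterByExpr, which left 15 genes, none of the 37 could be tested. Counts over all genes were less stable. In 5 Gy x2 against control (8 called) they were 0 with TMM factors, 0 with DESeq2, 5 with filterByExpr, 4 with no filter, 5 with the replicate block, and 2 to 8 leaving out a library. In 5 Gy x4 against control (25) they were 9 with TMM, 1 with DESeq2, 8 with filterByExpr, 9 with no filter, 13 for circles under 1000 bp, and 5 to 27. With both irradiated groups (24) they were 7, 0, 6, 6 and 10 in that order, 14 with the replicate block, and 4 to 26. Between the doses all gave 0. In the 3 comparisons with control, leaving out control replicate 4 gave 2, 5 and 4, control replicate 3 gave 3, 14 and 10, and control replicate 2 gave 4, 12 and 7. Leaving out 5 Gy x2 replicate 1 or 3 gave 5 or 2 in 5 Gy x2, replicate 3 of 5 Gy x2 gave 15 with both groups, and replicate 3 of 5 Gy x4 gave 16 in 5 Gy x4. Deviations of same-numbered libraries correlated at -0.02 to 0.10, of others at -0.05 to 0.07. The highest value was that of replicate 4 of control with replicate 4 of 5 Gy x2. With so few circles per gene, this check cannot tell whether replicate numbers pair libraries. For the 12 genes with values by library, the log2 fold change turned sign in 84 of 860 alternative values, none past the threshold. Of these, 16 came with TMM factors, 13 with DESeq2, and 46 of 572 from leaving out a library. TMM factors and DESeq2 moved the genes unequally. In 5 Gy x4 against control, Alk went from -0.02 to 1.11 with TMM and 1.07 with DESeq2. Egfr, at 0 in control, went from 4.06 to 4.32 and 2.97.

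The share of the 37 genes in 5 Gy x4 minus control (0.0564 percentage points) was 0.249 among hconf circles, 0.143 for exonic circles, 0.0975 by reads, -0.0235 with at least 5 reads, -0.0220 at 330 to under 420 bp, and 0.00264 to 0.140 leaving out a library. In 5 Gy x2 minus control (-0.0864) it was 0.0637 among hconf and 0.0757 for exonic circles, -0.205 with at least 5 reads, -0.180 at 330 to under 420 bp, and -0.140 to -0.00328 leaving out a library. Between the doses (0.143) it was 0.0669 for exonic circles, 0.139 to 0.185 in the other settings, and 0.0825 to 0.192 leaving out a library. The number of genes with a circle in 5 Gy x4 minus control (11.75) was 7.75 with at least 5 reads, 4.25 for exonic and 7.75 for hconf circles, 0.330 at equal size, and 10.3 to 13.6 leaving out a library; between the doses (8) it was 2.50 for exonic circles, 1.62 at equal size, and 4.92 to 9.92. In 5 Gy x2 minus control (3.75) it was -1.29 at equal size, 1.25 to 6.75 in the other settings, and 1.83 to 6.83 leaving out a library. Control depth limits single genes: 0 circles there allow a share of up to 0.0287%.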

Other observations

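The flanks held 14 listed circles next to 10 of the genes, 6 upstream and 8 downstream. The circle downstream of Kdr, on chromosome 14 from 34789092 to 34789456, was found in 8 libraries, 2 control, 4 5 Gy x2 and 2 5 Gy x4, on 246 supporting reads, more libraries than any circle inside a listed gene. Myc, Hras and Ccnd2, which had no circle in an exon or intron, had circles in their flanks. That of Myc lay downstream, on chromosome 7 from 102591647 to 102592012, in 5 Gy x4 replicate 1 on 31 reads. That of Hras, also downstream, was in 5 Gy x4 replicate 3 on 4 reads, and a pair upstream of Ccnd2 was in 5 Gy x2 replicate 2 (1 read) and 5 Gy x4 replicate 3 (2 reads).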
